A study of Mus musculus with 17 samples.

Results

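NRF2 and its antioxidant targets form a set of 10 genes: Nfe2l2, which encodes the transcription factor NRF2, and the target genes Slc7a11, Gclc, Gclm, Hmox1, Txnrd1, Srxn1, Gsr, G6pdx and Osgin1. The genes were chosen by name from what is known of the pathway, and a probe was assigned to a gene through its RefSeq transcript. All 10 were found among the 20018 gene symbols on the array, by 12 probes, and all 10 were among the 13866 genes with a symbol that were bright enough to be tested. The study dosed male MutaTMMouse animals aged 24 to 26 weeks by oral gavage every day for 28 days with benzo(a)pyrene, a polycyclic aromatic hydrocarbon, dissolved in olive oil. The groups were olive oil alone (control, 5 arrays) and 25, 50 and 75 mg/kg benzo(a)pyrene (4 arrays each), with 1 forestomach RNA sample per array. The forestomach was collected 72 hours after dosing ended, and RNA came from random sections of the forestomach, so the layers of the stomach wall were not separated. Forestomach RNA was labelled with Cy5 on each array and hybridised against Cy3-labelled Universal Mouse Reference RNA, which is pooled from 11 mouse cell lines. The dyes were swapped on no array. A level below is the log2 ratio of Cy5 over Cy3, and it can be set against other samples for the same gene but not against other genes.

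NRF2 is kept low in unstressed cells by KEAP1, which delivers it to a CUL3 ubiquitin ligase for destruction. Oxidants and electrophiles modify KEAP1, and NRF2 then accumulates, pairs with small MAF proteins and binds antioxidant response elements in the control regions of its targets. The targets import cystine, build and recycle glutathione, recycle thioredoxin, supply NADPH and break down haem. Benzo(a)pyrene is turned by cytochrome P450 enzymes into reactive epoxides and quinones, and mice that lack NRF2 are known to form more forestomach tumours after benzo(a)pyrene.

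On the control arrays the forestomach label fitted its markers, since the 6 basal and the 6 tested suprabasal keratinocyte markers were well above background on every control array, whereas 1 of 4 tested markers of the glandular stomach was. The mean log2 ratio of the 4 glandular markers lay between 0.87 and 5.49 at 25 mg/kg and between 0.25 and 1.86 in control. All 4 had a positive difference at 25 mg/kg, with a median of 1.72. Of these, 3 had an unadjusted p under 0.05, beside 3.26% of all genes, and 0 passed after adjustment. Between 39.9% and 50.7% of probes per array were well above background, the number of arrays limits the precision, and the arrays lay on 3 slides that each held all 4 groups. No 2 arrays correlated below 0.864. The tissue was measured in bulk, so a change in the share of a cell type and a change in RNA per cell cannot be told apart.

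Of the 10 genes, Slc7a11 was the one whose RNA changed by the test used, and it was higher at 75 mg/kg. Each dose was compared with control by limma over all 21394 genes tested, with Benjamini-Hochberg adjustment and a threshold of 0.05. At 25 mg/kg 0 of 10 members passed, beside 0.014% of all genes, and 0 had an unadjusted p under 0.05, beside 3.26% of all genes. At 50 mg/kg 0 of 10 passed, beside 0.0467% of all genes, and 1 had an unadjusted p under 0.05, beside 6.81% of all genes. At 75 mg/kg 1 of 10 passed, beside 1.1% of all genes, and 5 of 10 had an unadjusted p under 0.05, beside 10.1% of all genes. Of all genes tested, 191 were higher and 45 lower at 75 mg/kg, and with median centring in place of loess the split was 142 higher and 3 lower. The members' median difference from control was 0.18, 0.09 and 0.21 on the log2 scale at 25, 50 and 75 mg/kg, where the median of all genes was 0.01, -0.01 and -0.01. With median centring the members' median at 75 mg/kg was 0.49, or 0.30 relative to the median of all genes there. Of the members, 8, 7 and 6 of 10 had a positive difference at 25, 50 and 75 mg/kg, beside 52.3%, 47.9% and 48.0% of all genes.

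**Figure D1:**
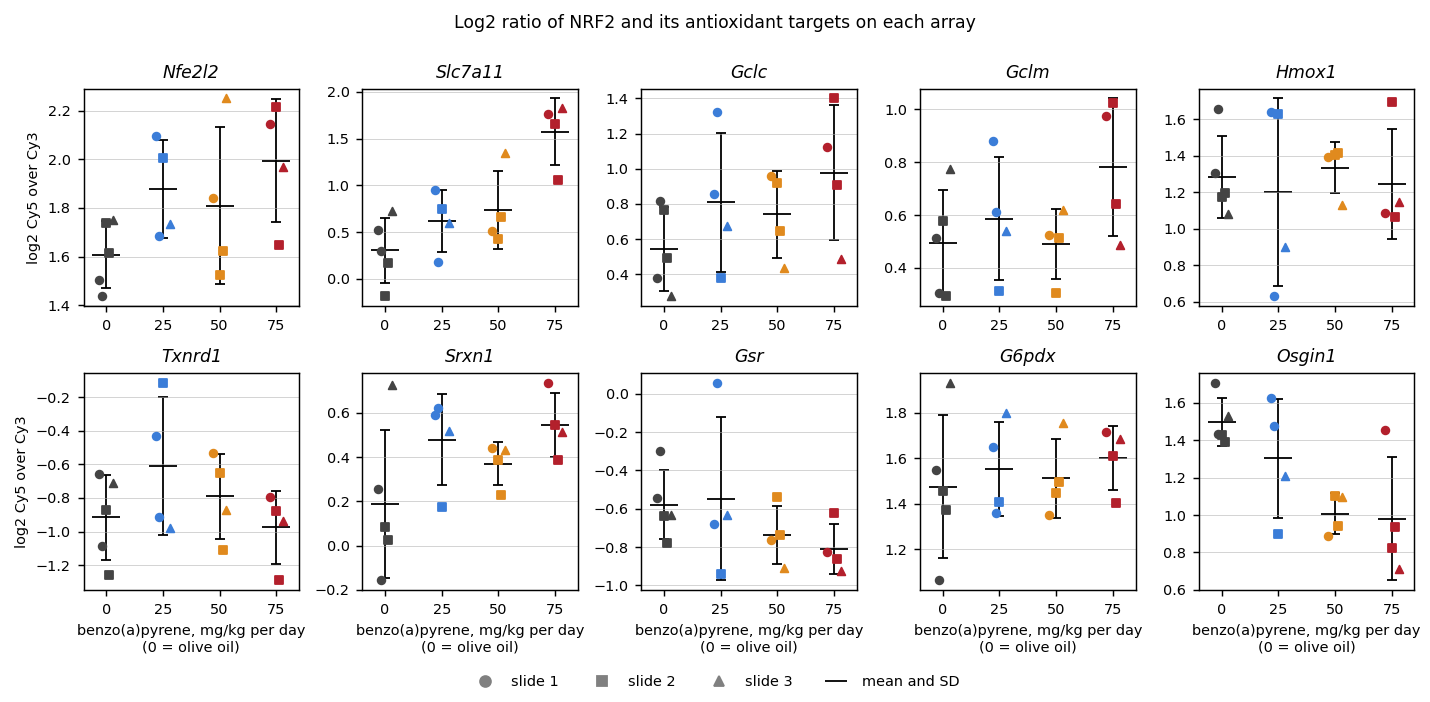
Log2 ratio of Cy5 over Cy3 (vertical axis) for each of the 10 genes on each of the 17 arrays, against the dose of benzo(a)pyrene in mg/kg per day (horizontal axis); bars are the group mean and SD, and symbols mark the slide. The 4 arrays at 75 mg/kg lie between 1.06 and 1.83 for Slc7a11, above all 5 control arrays, and the other 9 genes overlap between 75 mg/kg and control.

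Slc7a11 encodes xCT, the light chain of the transporter that imports cystine in exchange for glutamate and so supplies cysteine for glutathione. Its log2 ratio was 0.52, 0.29, -0.19, 0.17 and 0.73 on the control arrays, 0.96, 0.18, 0.75 and 0.60 at 25 mg/kg, 0.51, 0.43, 0.66 and 1.35 at 50 mg/kg, and 1.76, 1.65, 1.06 and 1.83 at 75 mg/kg. Every array at 75 mg/kg lay above every control array, while replicate 15 of the 50 mg/kg group lay above replicate 19, the lowest at 75 mg/kg. No overlap with control in the higher direction at 75 mg/kg was found for 1.99% of all genes with a value on every array, and for 1 of the 10 members. The mean was 1.58 ± 0.35 at 75 mg/kg (SD, n = 4) and 0.31 ± 0.35 in control (SD, n = 5), a difference of 1.27 ± 0.22 (standard error of the fit, as for all differences below) with a 95% interval of 0.80 to 1.74 and limma adjusted p = 0.00818. This is a 2.41-fold higher ratio with an offset of 50 added to both channels, and its size moved with the processing, as given below.

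The lower doses did not pass for Slc7a11. It differed from control by 0.31 ± 0.22 at 25 mg/kg (limma adjusted p = 0.999) and by 0.43 ± 0.22 at 50 mg/kg (limma adjusted p = 0.768). These values moved with the processing: with the scanner software's processed signals they were 0.67 at 25 mg/kg and 1.02 at 50 mg/kg. At 25 mg/kg the difference was 0.20 without replicate 6 of that dose and 0.19 without replicate 3 of the control group, and at 50 mg/kg it was 0.23 without replicate 15 of that dose. None of these passed. Between doses it was 0.96 ± 0.24 higher at 75 than at 25 mg/kg (limma adjusted p = 0.249) and 0.84 ± 0.24 higher at 75 than at 50 mg/kg (limma adjusted p = 1.00), so the step between doses was not past the threshold over all genes. A straight line over the 4 dose levels rose by 0.39 ± 0.07 per 25 mg/kg (limma adjusted p = 0.00883). On this line 1 of 10 members passed, beside 1.35% of all genes.

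The signal of Slc7a11 was dim. Its Cy5 spot signal was 221, 228, 138 and 262 intensity units at 75 mg/kg and 103, 91, 81.5, 83.5 and 129 in control, over a local background of 64 to 79 on all 17 arrays. In Cy5 it stood well above background on 16 of 17 arrays, replicate 3 of the control group being the exception, and in Cy3 on all 17. The mean log2 intensity in the Cy3 channel, which held the reference RNA, was 6.21 at 75 mg/kg and 6.39 in control, so that channel contributed 0.19 of the 1.27. The Cy5 channel alone gave a difference of 1.08 (limma adjusted p = 0.0152), and the scanner software's processed signals gave 2.13 (limma adjusted p = 0.0263), which is 1.68 times as large on the log2 scale. Within slides 1, 2 and 3 the difference between 75 mg/kg and control was 1.36, 1.36 and 1.10. These slides held 1, 2 and 1 arrays at 75 mg/kg and 2, 2 and 1 control arrays. The within-slide differences at 75 mg/kg of other members below rest on the same arrays.

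The promoter of Slc7a11 is shown because Slc7a11 is the member that passed. Promoter sequences are those of RefSeq on build GRCm38.p6, from 250 bases before to 50 bases after the transcript's start, and 7 of the 10 members had at least 1. They were searched on both strands for TGACNNNGC, the core of the antioxidant response element, for GCGTG, the core of the element bound by the aryl hydrocarbon receptor (AHR), and for TGATGNAA, the C/EBP-ATF element through which ATF4 acts. The line gives the last 100 bases before the start in the direction of the gene, which lies on the minus strand of chromosome 3, and the capitals mark 2 matches of TGATGNAA, one on each strand. This start lies inside the annotated span of the gene, from 50364936 to 50499087.
Slc7a11, chr3:50443614-50443713, minus strand: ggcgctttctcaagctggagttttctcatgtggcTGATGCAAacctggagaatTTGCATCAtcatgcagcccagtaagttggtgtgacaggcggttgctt

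The matches lie at -66 to -59 and at -47 to -40 from the start. TGATGNAA was found in 3.97% of 32851 promoters of 300 bases and in 1 of the 7 members, in 1 of their 9 promoters. TGACNNNGC was not found in the 300 bases of Slc7a11, and the search allowed no mismatch. It was found in 12.4% of all promoters and in 5 of the 7 members, in 5 of their 9 promoters: Nfe2l2, Gclm, Txnrd1, Srxn1 and G6pdx. GCGTG was found in 32.4% of all promoters and in 5 of the 7 members, in 7 of their 9 promoters. A match describes letters in this window only.

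The antioxidant response element core of the 4 members that carry it before the start is printed here in the direction of each gene and with the core in capitals, to set beside the values of those genes. The core of Srxn1 lies after the start, at +29 to +37. Nfe2l2 has the core on its own strand, and the other three have it on the opposite strand.
Nfe2l2, chr2:75704875-75704913, minus strand: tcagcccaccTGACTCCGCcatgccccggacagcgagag
Gclm, chr3:122245403-122245451, plus strand: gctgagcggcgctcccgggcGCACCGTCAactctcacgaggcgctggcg
Txnrd1, chr10:82859094-82859142, plus strand: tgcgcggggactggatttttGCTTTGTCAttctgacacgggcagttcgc
G6pdx, chrX:74428909-74428957, minus strand: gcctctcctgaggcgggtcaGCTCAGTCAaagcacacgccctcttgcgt

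Nfe2l2, which encodes NRF2 and is a known target of its own product, had log2 ratios of 1.50, 1.44, 1.74, 1.61 and 1.75 in control, 2.09, 1.68, 2.00 and 1.73 at 25 mg/kg, 1.84, 1.53, 1.62 and 2.25 at 50 mg/kg, and 2.14, 2.21, 1.65 and 1.97 at 75 mg/kg. Of the 4 arrays at 75 mg/kg, 3 lay above all control arrays and replicate 19 lay among them. The difference from control at 75 mg/kg was 0.38 ± 0.15, with a 95% interval of 0.07 to 0.70 and limma adjusted p = 0.369. With median centring it was 0.76 (limma adjusted p = 0.456), or 0.57 relative to the median of all genes. At 25 and 50 mg/kg it was 0.27 ± 0.15 and 0.20 ± 0.15 (limma adjusted p = 0.999 and 0.842). Within slides 1, 2 and 3 it was 0.67, 0.25 and 0.22 at 75 mg/kg.

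Of NRF2's partners and regulators, none passed at any dose. Keap1, the sensor that holds NRF2 down, differed from control at 75 mg/kg by 0.05 ± 0.27 (95% interval -0.51 to 0.62, limma adjusted p = 0.969). Its log2 ratio varied with the slide, and the fit had no term for slide. On slide 3 it was -0.02 in control and 0.17, -0.41 and 0.20 at 25, 50 and 75 mg/kg. On slides 1 and 2 it lay between 0.56 and 1.13. Bach1, a repressor that competes for the same elements, differed by 0.07 ± 0.10 (95% interval -0.14 to 0.28, limma adjusted p = 0.875). Nfe2l1, which encodes the related factor NRF1, differed by -0.00 ± 0.13 (95% interval -0.27 to 0.26, limma adjusted p = 0.999). Over the list of 12 regulators, limma called 0 at each dose, and the median at 75 mg/kg was 0.05. At an unadjusted p under 0.05 there were 0, 0 and 2 at 25, 50 and 75 mg/kg. Of all genes, 3.26%, 6.81% and 10.1% had such a p.

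Gclc and Gclm encode the catalytic and the modifier subunit of glutamate-cysteine ligase, which joins cysteine to glutamate in the first step of glutathione synthesis. Gclc had log2 ratios of 0.38, 0.82, 0.77, 0.49 and 0.27 in control, 0.86, 1.32, 0.38 and 0.68 at 25 mg/kg, 0.96, 0.92, 0.65 and 0.44 at 50 mg/kg, and 1.12, 1.40, 0.91 and 0.48 at 75 mg/kg. Replicates 17, 18 and 19 at 75 mg/kg lay above all control arrays and replicate 20 lay among them. The difference at 75 mg/kg was 0.43 ± 0.20 (95% interval 0.01 to 0.85, limma adjusted p = 0.473). With median centring in place of loess it was 0.77 (limma adjusted p = 0.0421), or 0.58 relative to the median of all genes, which moved to 0.19 there.

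Gclm had log2 ratios of 0.51, 0.31, 0.58, 0.29 and 0.78 in control, between 0.31 and 0.88 at 25 mg/kg, between 0.31 and 0.62 at 50 mg/kg, and 0.97, 1.03, 0.64 and 0.49 at 75 mg/kg. Replicates 17 and 18 lay above all control arrays and the other two at 75 mg/kg did not. The difference at 75 mg/kg was 0.29 ± 0.14 (95% interval -0.01 to 0.58, limma adjusted p = 0.506), and 0.45 with median centring (limma adjusted p = 0.433), or 0.26 relative to the median of all genes. Within slides 1, 2 and 3 it was 0.56, 0.40 and -0.29.

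**Figure D2:**
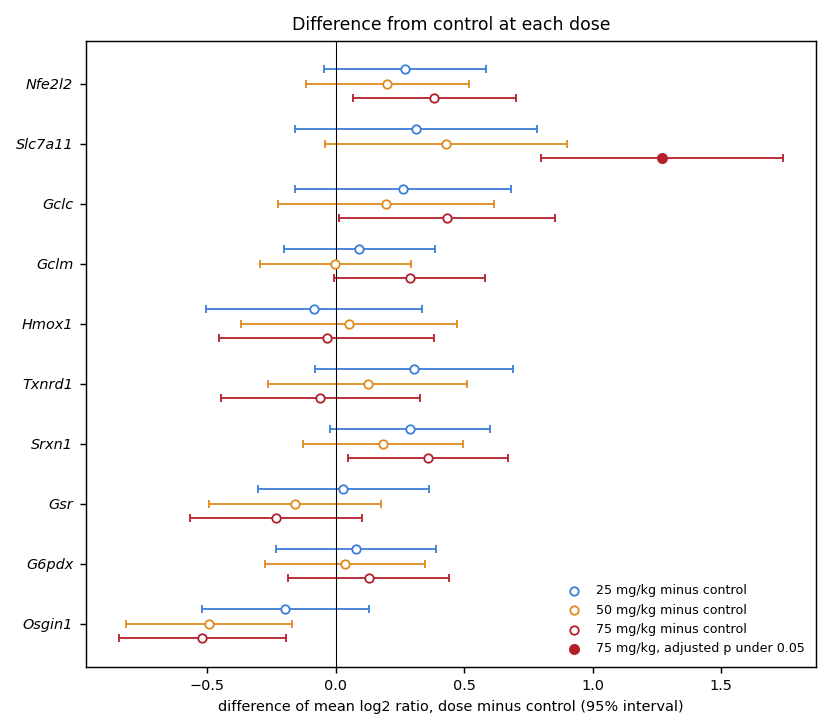
Difference of the mean log2 ratio between each dose and control (horizontal axis) for each gene (vertical axis), with its 95% interval; the filled point passed the threshold. The interval of Slc7a11 at 75 mg/kg runs from 0.80 to 1.74, and those of Osgin1 at 50 and 75 mg/kg lie below 0 although neither passed after adjustment.

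The genes that recycle thiols and supply NADPH did not pass at any dose. Srxn1, sulfiredoxin, which repairs overoxidised peroxiredoxins, had log2 ratios of 0.26, -0.16, 0.08, 0.03 and 0.73 in control, between 0.18 and 0.62 at 25 mg/kg, between 0.23 and 0.44 at 50 mg/kg, and 0.74, 0.54, 0.39 and 0.51 at 75 mg/kg. Replicate 5 of the control group stood above the other controls and within the range at 75 mg/kg. The difference at 75 mg/kg was 0.36 ± 0.15 (95% interval 0.05 to 0.67, limma adjusted p = 0.407), and within slides 1, 2 and 3 it was 0.69, 0.41 and -0.21. With median centring it was 0.73 (limma adjusted p = 0.454), or 0.54 relative to the median of all genes.

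Txnrd1, the cytosolic thioredoxin reductase, had log2 ratios of -1.29 to -0.79 at 75 mg/kg and -1.26 to -0.66 in control, a difference of -0.06 ± 0.18 (95% interval -0.45 to 0.33, limma adjusted p = 0.946). Its largest positive difference was at 25 mg/kg, 0.31 ± 0.18 (limma adjusted p = 0.999). Gsr, glutathione reductase, had log2 ratios of -0.93 to -0.62 at 75 mg/kg and -0.78 to -0.30 in control, a difference of -0.23 ± 0.16 (95% interval -0.56 to 0.10, limma adjusted p = 0.686). The groups overlapped for both reductases. A second probe of Gsr gave -0.27 ± 0.20. G6pdx, glucose-6-phosphate dehydrogenase, which supplies NADPH, had log2 ratios of 1.40 to 1.71 at 75 mg/kg, all within the control range of 1.06 to 1.93, and differed by 0.13 ± 0.15 (95% interval -0.18 to 0.44, limma adjusted p = 0.831). With median centring G6pdx differed by 0.53 (limma adjusted p = 0.493), or 0.34 relative to the median of all genes, and it differed by 0.02 without replicate 2 and 0.24 without replicate 5 of the control group.

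Hmox1 encodes haem oxygenase 1, which breaks haem down to biliverdin, iron and carbon monoxide. Its log2 ratio was 1.31, 1.66, 1.18, 1.20 and 1.08 in control, 1.64, 0.63, 1.63 and 0.90 at 25 mg/kg, 1.39, 1.41, 1.42 and 1.13 at 50 mg/kg, and 1.09, 1.70, 1.06 and 1.15 at 75 mg/kg. The groups overlapped throughout, and the 25 mg/kg arrays spread most, with an SD of 0.51. The difference at 75 mg/kg was -0.04 ± 0.20 (95% interval -0.45 to 0.38, limma adjusted p = 0.972), and a second probe gave -0.15 ± 0.20.

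Osgin1, oxidative stress induced growth inhibitor 1, was the member with the most negative difference, and it did not pass at any dose. Its log2 ratio was 1.71, 1.43, 1.43, 1.39 and 1.53 in control, 1.63, 1.48, 0.90 and 1.21 at 25 mg/kg, 0.89, 1.10, 0.94 and 1.10 at 50 mg/kg, and 1.46, 0.82, 0.93 and 0.71 at 75 mg/kg. All arrays at 50 mg/kg lay below all control arrays, which held for 1 of the 10 members beside 0.988% of all genes in that direction, and at 75 mg/kg replicate 17 lay within the control range. The difference was -0.49 ± 0.15 at 50 mg/kg (limma adjusted p = 0.470) and -0.52 ± 0.15 at 75 mg/kg (95% interval -0.84 to -0.19, limma adjusted p = 0.165). The line over dose had a slope of -0.19 ± 0.05 per 25 mg/kg (limma adjusted p = 0.0577).

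The result for Osgin1 changed with the processing and with single arrays. At 75 mg/kg it was -0.68 without replicate 17 of that group (limma adjusted p = 0.0386) and -0.17 with median centring (limma adjusted p = 0.681), or -0.36 relative to the median of all genes there. The slope passed with slide as a block (-0.17, limma adjusted p = 0.0360), without replicate 17 at 75 mg/kg (-0.23, limma adjusted p = 0.00763) and without replicate 8 at 25 mg/kg (-0.19, limma adjusted p = 0.0327), and it was -0.09 with median centring (limma adjusted p = 0.574). Within slides 1, 2 and 3 the difference at 75 mg/kg was -0.11, -0.53 and -0.82.

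The members were then compared across arrays with Nfe2l2 itself. Over the 17 arrays, Slc7a11 correlated with Nfe2l2 with Pearson r = 0.73 (permutation p = 0.00096, 0.00864 after Benjamini-Hochberg adjustment over 9 relations) and Spearman rho = 0.69 (permutation p = 0.00328, 0.0245 adjusted). Without the 2 arrays farthest from the median of Nfe2l2, r was 0.64. After removing the group means r was 0.67, and within slides 1 and 2 it was 0.81 and 0.64. On the 4 arrays of slide 3 it was 0.66, from too few arrays to be read as a correlation. Arrays high in Nfe2l2 thus tended to be high in Slc7a11 within dose groups too, and the points share the same arrays and the same reference RNA. The permutations shuffled all 17 arrays across dose groups and slides. Their p-values therefore do not separate a shared change with dose from a relation within groups. No p-value was computed for r after removing the group means, nor the share of all genes with an r to Nfe2l2 this high.

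Gclm correlated with Nfe2l2 with r = 0.64 (permutation p = 0.00607, 0.0273 adjusted) and rho = 0.65 (permutation p = 0.00544, 0.0245 adjusted). Its r was 0.59 without the 2 farthest arrays, 0.56 after removing the group means, and 0.93 and 0.63 within slides 1 and 2. On the 4 arrays of slide 3 it was -0.20, again from too few arrays to be read as a correlation. The other 7 targets did not pass, with r between -0.48 for Gsr and 0.53 for Srxn1 and adjusted permutation p of 0.0681 or more. Hmox1 had r = 0.14 and rho = -0.01.

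**Figure D3:**
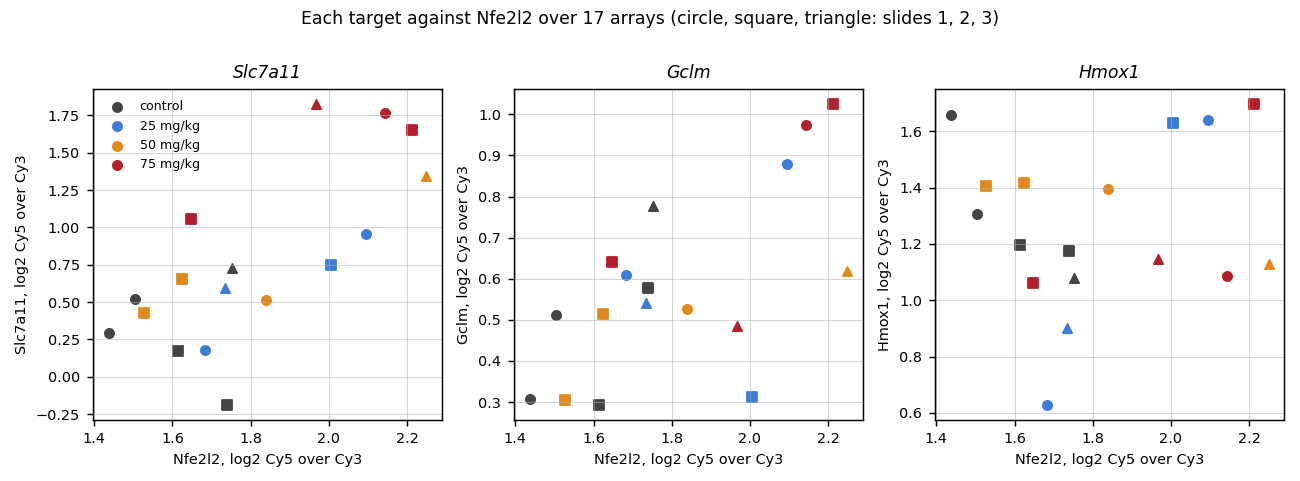
Log2 ratio of Slc7a11, Gclm and Hmox1 (vertical axes) against that of Nfe2l2 (horizontal axis) on the 17 arrays; colours mark the dose and symbols the slide. The points rise together for Slc7a11 (r = 0.73) and Gclm (r = 0.64), and are scattered for Hmox1 (r = 0.14).

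The genes whose pattern was most like that of Slc7a11 over the 17 arrays, among 13844 genes with a symbol and a value on every array, were Slc39a6, a zinc transporter (r = 0.94), Npl, N-acetylneuraminate pyruvate lyase (r = 0.91), Eif4ebp3, a binding protein of the translation factor eIF4E (r = 0.90), Nras, a small GTPase (r = 0.88), and Gapdhs, a glyceraldehyde-3-phosphate dehydrogenase (r = 0.88). With group means removed, r was 0.82, 0.72, 0.78, 0.86 and 0.71 in the same order. At 75 mg/kg Slc39a6 was 0.74 higher than control (limma adjusted p = 0.00666), Npl 1.61 higher (limma adjusted p = 0.00399) and Eif4ebp3 0.51 higher (limma adjusted p = 0.0350). Nras and Gapdhs differed by 0.33 and 0.52 and did not pass (limma adjusted p = 0.341 and 0.0689). The 5 were picked for their high r on these same arrays. No other member was among the 5, which says little with 13844 genes compared.

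Other NRF2 targets did not pass at any dose. Nqo1, a quinone reductase that both NRF2 and AHR control, differed from control by 0.36 ± 0.13 at 25 mg/kg, 0.15 ± 0.13 at 50 mg/kg and 0.08 ± 0.13 at 75 mg/kg (limma adjusted p = 0.999, 0.869 and 0.899). Of 21 further targets tested, Nqo1 included, limma called 0 at each dose. At an unadjusted p under 0.05, 2 were higher at 25 mg/kg, 2 higher and 1 lower at 50 mg/kg, and 3 higher and 1 lower at 75 mg/kg. Their difference was positive for 17, 13 and 8 of 21 at 25, 50 and 75 mg/kg, beside 52.3%, 47.9% and 48.0% of all genes, and their median was 0.14, 0.02 and -0.03. Of 16 other antioxidant enzymes, such as superoxide dismutases and peroxiredoxins, limma called 0 at each dose, with 0, 0 and 3 at an unadjusted p under 0.05, and a median of -0.04 at 75 mg/kg. Of 11 genes of glutathione use and cysteine supply, limma called 0 at each dose, with a median of 0.09 at 75 mg/kg. At an unadjusted p under 0.05, 3 were higher at 25 mg/kg and 2 higher at 50 mg/kg. At 75 mg/kg 1 was higher and 1 lower at that p. The share of all genes to set beside these lists was 3.26%, 6.81% and 10.1% at 25, 50 and 75 mg/kg.

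Slc7a11 is also a known target of ATF4, the transcription factor of the amino acid stress response, so the genes of that response were set beside it. Slc3a2, the heavy chain that xCT needs to reach the cell surface, had log2 ratios of -0.80, -0.68, -0.90 and -0.73 at 75 mg/kg and -1.35, -0.997, -0.95, -1.21 and -1.27 in control. The groups did not overlap, which held in the higher direction for 1.99% of all genes. The difference was 0.38 ± 0.11 (95% interval 0.13 to 0.62, limma adjusted p = 0.186). With median centring it was 0.78 (limma adjusted p = 0.226), or 0.59 relative to the median of all genes. Atf4 itself differed by 0.20 ± 0.13 (95% interval -0.07 to 0.47, limma adjusted p = 0.652).

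Trib3, a pseudokinase that ATF4 induces, had log2 ratios of -2.45, -2.96, -2.39, -2.41 and -2.31 in control, -2.30, -2.64, -2.06 and -2.42 at 25 mg/kg, -1.61, -2.44, -2.08 and -2.02 at 50 mg/kg, and -1.98, -1.61, -1.91 and -1.84 at 75 mg/kg. Its line over dose rose by 0.23 ± 0.05 per 25 mg/kg (limma adjusted p = 0.0210). All arrays at 75 mg/kg lay above all control arrays, as for 1.99% of all genes. The difference at 75 mg/kg was 0.67 ± 0.16 (limma adjusted p = 0.0681), and 1.01 with median centring (limma adjusted p = 0.226), or 0.82 relative to the median of all genes. The slope did not pass with median centring (0.33, limma adjusted p = 0.129), with the scanner software's processed signals (0.21, limma adjusted p = 0.0556), without replicate 18 at 75 mg/kg (0.21, limma adjusted p = 0.0793) or without replicate 20 at 75 mg/kg (0.23, limma adjusted p = 0.0516). The difference at 75 mg/kg passed without replicate 12 (limma adjusted p = 0.0426) or replicate 13 (limma adjusted p = 0.0435) of the 50 mg/kg group. Of the 14 genes of the ATF4 and amino acid stress list, limma called 0 at each dose and 1 on the line, beside 1.35% of all genes on that line. At an unadjusted p under 0.05 there were 0, 1 and 3 at 25, 50 and 75 mg/kg, beside 3.26%, 6.81% and 10.1% of all genes. At 75 mg/kg 12 of 14 were positive, beside 48.0% of all genes, and the median was 0.09. Slc7a5, also on this list, differed at 75 mg/kg by 0.52 (limma adjusted p = 0.157). Ddit4, Phgdh, Asns, Chac1 and Psat1 differed at 75 mg/kg by 0.25, 0.17, 0.10, 0.07 and 0.06. Cebpb, Atf3, Ddit3, Cth and Sesn2 differed by 0.06, 0.02, 0.01, -0.08 and -0.19. The part of ATF4 in the result for Slc7a11 was not tested. The promoter of Trib3 held TGATGNAA at +15 to +22, on the opposite strand.

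**Figure D4:**
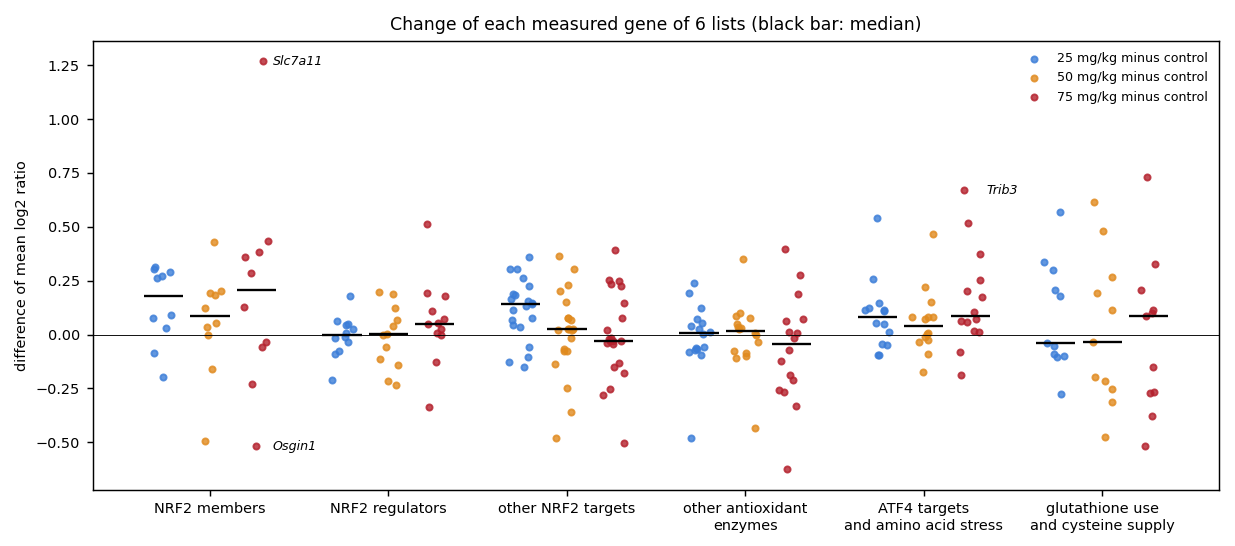
Difference of the mean log2 ratio from control (vertical axis) for each tested gene of 6 gene lists (horizontal axis) at 25, 50 and 75 mg/kg; each point is a gene and the black bar is the list's median. Slc7a11 at 1.27 stands above all other points, and the medians of the other 5 lists at 75 mg/kg lie between -0.04 and 0.09.

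The AHR pathway, through which benzo(a)pyrene induces its own metabolism, was measured on the same arrays. Cyp1a1, its classic target, differed from control at 75 mg/kg by 0.21 ± 0.18 (95% interval -0.16 to 0.59, limma adjusted p = 0.750), at a Cy5 signal of 70.5 to 132 intensity units over all arrays, close to background. Of 7 AHR targets limma called 0 at each dose, and the median at 75 mg/kg was 0.12. At an unadjusted p under 0.05, 2 were higher at 25 mg/kg, 1 lower at 50 mg/kg and 1 higher at 75 mg/kg. The shares of all genes were 3.26%, 6.81% and 10.1%.

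Slc7a11 is also expressed by macrophages and other immune cells, so the markers of other cell types were read beside it. The mean log2 ratio of 6 tested macrophage markers lay between 0.18 and 0.62 at 75 mg/kg and between -0.09 and 0.87 in control, and that of 6 neutrophil markers between 1.04 and 2.39 at 75 mg/kg and between 0.55 and 2.60 in control. Both ranges lay within those of control. Their group means at 75 mg/kg and in control were 0.37 and 0.19 for macrophage and 1.70 and 1.09 for neutrophil markers. In each list 4 of 6 differences at 75 mg/kg were positive. They ran from -0.15 to 0.72 for macrophage and from -0.33 to 2.26 for neutrophil markers. The 6 basal keratinocyte markers lay between 2.72 and 3.12 at 75 mg/kg and between 2.58 and 2.78 in control, the 6 suprabasal ones between 5.08 and 5.85 at 75 mg/kg and between 5.29 and 5.78 in control, and the 4 glandular ones between 0.76 and 3.53 at 75 mg/kg and between 0.25 and 1.86 in control. The 6 smooth muscle markers lay between 4.45 and 5.20 at 75 mg/kg and between 4.82 and 5.54 in control, and the 6 fibroblast markers between 0.09 and 1.24 at 75 mg/kg and between 0.01 and 0.80 in control. The 5 adipocyte markers lay between 1.28 and 2.66 at 75 mg/kg and between 1.31 and 3.47 in control, and the 2 red blood cell markers between 2.45 and 2.97 at 75 mg/kg and between 1.98 and 5.32 in control. At 75 mg/kg limma called 0 genes of these 9 lists. At an unadjusted p under 0.05, 2 basal, 2 macrophage, 1 neutrophil and 1 fibroblast marker were higher. At that p 1 suprabasal and 1 smooth muscle marker were lower. Of all genes, 10.1% had such a p at 75 mg/kg. All 6 smooth muscle markers had a negative difference at 75 mg/kg, with a median of -0.44, and all 4 glandular markers a positive one, with a median of 1.27 and up to 2.13. The part of these cell types in the result for Slc7a11 was not tested.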

How the data were processed

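Gene expression was measured on 17 arrays of 2 colours. Per the file headers, the deposited intensity values were written by Feature Extraction 10.7.3.1, and the median spot and background signals were used (a mean signal column was not used here). The deposited series table holds log2 values whose scale is not given in the sources used here. It correlated at 0.998 to 0.999 with loess log2 ratios without background correction, its column medians were -0.03 to -0.02, and it served as an alternative.

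From the deposited intensity values, background was removed by normexp (offset 50) and ratios were normalized by loess within each array. Control spots and outlier spots were left out. A probe was kept if its Cy5 signal stood well above background on 4 arrays or more (27589 of 55681), and the brightest probe stood for each gene. RefSeq transcripts gave 26413 probes 1 symbol, 0 several and 29268 none. Group means, or a line over dose, were fitted by lmFit and eBayes (limma 3.58.1, R 4.3.3), with two-sided p-values and Benjamini-Hochberg adjustment, and the code was tested on simulated data. Correlations used 100000 permutations of all 17 arrays, not restricted to dose group or slide, two-sided. The design text calls the arrays of a group biological replicates, and p-values measure the spread between them.

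The members and lists were chosen with earlier results of these data known. The text names all members, the listed genes that passed, Nfe2l1, Keap1, Bach1, Nqo1, Atf4, Slc3a2 and Cyp1a1, and the 5 genes most like a member that passed. Listed genes given with values beyond these did not pass and were added after their values were seen. The listed markers Flg, Cd68, Cd163, Ly6g, Gif, Atp4a and Hbb-b1 were not tested. Alternatives were slide as a block, median centring, no background correction, processed signals, Cy5 alone, the deposited table, other filters and probe rules, the compared groups alone, and leaving out each array.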

Additional observations from a re-analysis of the deposited data

Results flagged for a closer look

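Of 40 groups of a member at a dose, 2 held an array far from the others of its group by Dixon's test, and chance alone flags about 1 in 20 groups, which is about 2 of 40. Both were for Hmox1. Replicate 18 at 75 mg/kg had a log2 ratio of 1.697, and the nearest of the other arrays at that dose had 1.145. Replicate 15 at 50 mg/kg had 1.129, and the nearest of the others at that dose had 1.394.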

How the results depend on the processing

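The rise of Slc7a11 at 75 mg/kg passed under all 26 alternatives that gave a value, between 1.08 and 2.13, with adjusted p from 0.00281 to 0.0396 (1.15 to 1.44 when single arrays were left out). Its dim signal limits it: with probes kept only where well above background on all 17 arrays it was not tested, and 0 members were then called at 75 mg/kg and 0 on the line. Members called at 75 mg/kg were 2 with median centring, and members called on the line were 2 with slide as a block. Leaving out single arrays gave 1 to 2 for each. At 25 and 50 mg/kg 0 members were called under every alternative. All genes called at 75 mg/kg were 236, against 424 with slide as a block, 145 with median centring, 154 with the compared groups alone and 119 to 289 when single arrays were left out. On the line all genes called were 288, against 549 with slide as a block, 172 with median centring and 190 to 403 when single arrays were left out. Differences that changed sign were not called and reached at most 0.36 after the change. With median centring, where the median of all genes was 0.16, 0.08 and 0.19 at 25, 50 and 75 mg/kg, they were 0.21 for Hmox1 and 0.046 for Osgin1 at 25 mg/kg, 0.086 for Gclm and 0.044 for Gsr at 50 mg/kg, and 0.36 for Hmox1, 0.32 for Txnrd1 and 0.14 for Gsr at 75 mg/kg. Gclm at 50 mg/kg was 0.014 with slide as a block and 0.012 with processed signals. Without single arrays the ranges were -0.0054 to 0.18 for Gclm, -0.23 to 0.11 for Hmox1, -0.17 to 0.16 for Gsr and -0.024 to 0.19 for G6pdx at 25 mg/kg, -0.052 to 0.069 for Gclm and -0.066 to 0.15 for G6pdx at 50 mg/kg, and -0.19 to 0.058 for Hmox1 and -0.14 to 0.046 for Txnrd1 at 75 mg/kg. The members' median at 75 mg/kg was 0.49 with median centring. The causes were not tested. No paired analysis was possible because no replicate number is shared between the groups.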

Other observations

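Further listed genes of glutathione, amino acid and NRF2 pathways did not pass at 75 mg/kg, and these were chosen after their values were seen. Slc7a5, the light chain of a neutral amino acid transporter that pairs with the same heavy chain as xCT, differed from control by 0.52 ± 0.15 on the log2 scale (limma adjusted p = 0.157). Ggct, gamma-glutamylcyclotransferase, an enzyme of glutathione breakdown, differed by 0.73 ± 0.22 (limma adjusted p = 0.169). Oplah, 5-oxoprolinase, which acts after Ggct, differed by -0.52 ± 0.16 (limma adjusted p = 0.206). Gss, glutathione synthetase, which performs the step after glutamate-cysteine ligase, differed by 0.39 ± 0.16 (limma adjusted p = 0.371). Maff, a small MAF partner of NRF2, differed by 0.51 ± 0.17 (limma adjusted p = 0.263). Akr1b8, an aldo-keto reductase, differed by -0.50 ± 0.18 (limma adjusted p = 0.305).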
